A study of Mus musculus with 6 samples.

Results

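The genes described here are 7 of the 770 on the panel, taken by name from the raw count table: the Src-family kinases Lyn, Fyn and Lck, the kinases Syk, Btk and Abl1, and the adaptor Blnk. They were measured in tumour RNA from BrafV600E/PtenNULL mice, a melanoma model in which the skin of the back was painted with 4-hydroxy-tamoxifen at 10 weeks of age to start tumours. The 4′-BR group (3 samples) came from mice given 4′-bromo-resveratrol, an analogue of resveratrol that carries a bromine atom, injected into the peritoneum at 30 mg/kg of body weight, 3 times weekly over 5 weeks. The Control group (3 samples) carried the same alleles and tumours induced in the same way. The labels used here do not say what the Control mice were injected with, which line carries the recombinase or what sex the mice were. They also state 6 mice without tying each sample to its own animal, so every p-value below measures the spread between these samples. RNA was counted on the nCounter platform, in which a probe pair with a fluorescent barcode binds each RNA molecule and the barcodes are counted without amplification.

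Src-family kinases sit at the inner face of the plasma membrane and phosphorylate the tails of immune receptors on paired tyrosines (the ITAM motif) when these receptors are bound. Syk, or its T cell relative Zap70, then docks on the phosphorylated tails, and adaptors such as Blnk bring in Btk and phospholipase C to pass the signal on to calcium and NFAT. Lyn is the main Src-family kinase of B cells, macrophages and mast cells and also phosphorylates inhibitory receptors, Lck serves the T cell receptor, and Fyn is found in T cells and mast cells and in many cells outside the immune system, where it acts at integrin adhesions. Abl1 is a broadly expressed kinase of another family that regulates the cytoskeleton and the response to DNA damage.

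Lyn and Fyn fell in 4′-BR tumours, to 54.9% and 60.6% of their Control levels by the fitted fold change, and the other 5 genes did not pass the test. Of 548 genes tested over the whole panel, 38 passed (6.93%), 31 lower (5.66%) and 7 higher (1.28%) in 4′-BR tumours, and 2 of the 7 genes described here passed, in each case as lower. The fold changes of 6 were negative and that of Blnk was positive, where 52.7% of all tested genes were negative. The median over the 7 genes was −0.26 on the log2 scale, against −0.04 over all tested genes. All 7 had a mean raw count above the minimum of 20 set for the test, Lck narrowly, at 21.7. The test was edgeR's quasi-likelihood test on raw counts with the housekeeping probes as scale, with p-values adjusted by the Benjamini-Hochberg method over all 548 genes and a threshold of 0.05.

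**Figure D1:**
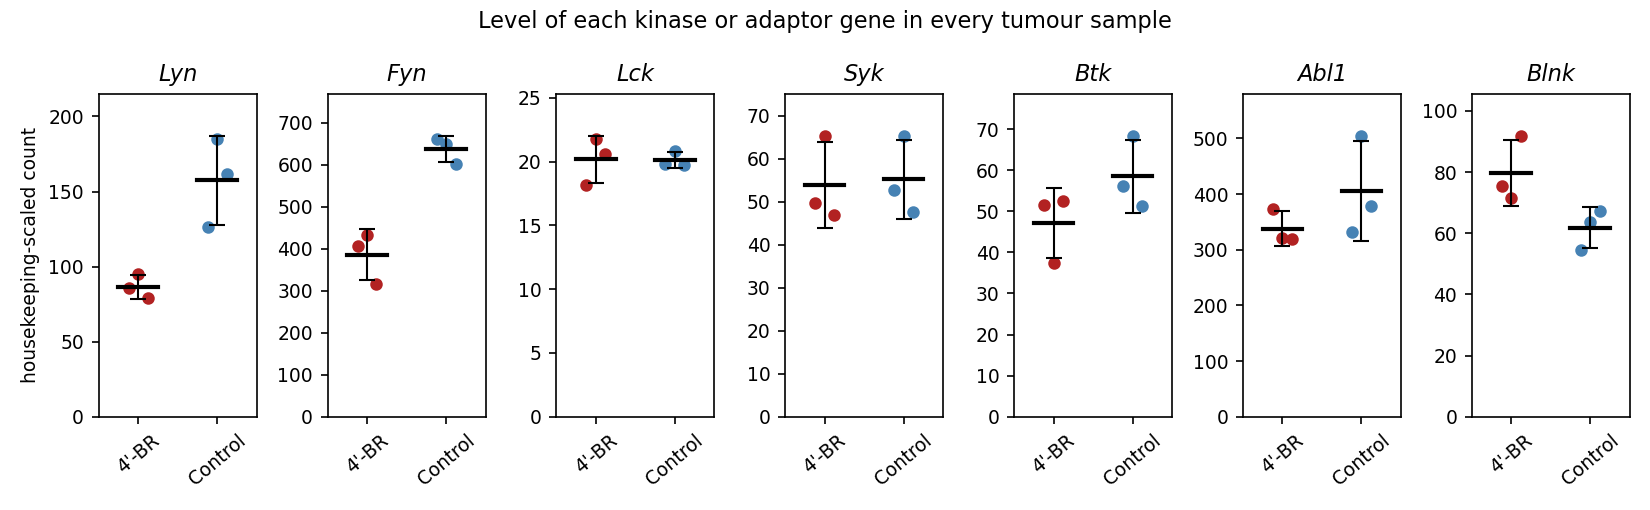
Each panel plots 1 gene, with the housekeeping-scaled count on an axis that starts at 0 and the 3 4′-BR samples left of the 3 Control samples; the horizontal bar is the mean and the whisker the SD. The 4′-BR points lie below all Control points for Lyn and Fyn and above them for Blnk, and the groups overlap for Lck, Syk, Btk and Abl1.

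The samples differed in depth along the same line as treatment. Total counts over the 770 genes were 118221 to 254862 in 4′-BR samples and 322485 to 472402 in Control samples, and the geometric means of the 20 housekeeping probes were 221 to 435 in 4′-BR samples and 504 to 698 in Control samples. The negative probes, which match no mouse RNA, stood after scaling at 3.46 to 7.50 in 4′-BR samples and 4.11 to 4.95 in Control samples, below all 7 genes. Depth and treatment cannot be told apart by any grouping of these samples. The balance of calls depended on the scale. TMM gave 16 higher and 38 lower genes, and median of ratios gave 17 higher and 37 lower. Scaling to the total count gave 30 of each, and scaling to the positive control probes gave 1 higher and 243 lower. The median log2 fold change of all genes was 0.12 on the total count scale and −0.67 on the positive control scale. The number of genes past the threshold also depended on single samples: in edgeR it was 0 without 4′-BR 1 (107 at an unadjusted p under 0.05), 0 without 4′-BR 2 (116), 1 without 4′-BR 3, 1 without Control 1, 7 without Control 2 and 35 without Control 3.

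Lyn had housekeeping-scaled counts of 86.0, 94.9 and 78.8 in 4′-BR samples 1, 2 and 3, against 126, 185 and 162 in Control samples 1, 2 and 3. Every 4′-BR sample lay below every Control sample, and the 4′-BR samples lay closer together than the Control samples. The group levels were 86.6 ± 8.05 in 4′-BR tumours and 158 ± 29.6 in Control tumours (mean ± SD, n = 3 each), a log2 fold change of −0.86 (SE 0.21, 95% interval −1.33 to −0.40, edgeR adjusted p = 0.0387). The raw counts behind these levels were 90, 61 and 42 in 4′-BR samples and 153, 311 and 221 in Control samples. Counting error alone was 10.5% to 15.4% of a Lyn count in 4′-BR samples and 5.67% to 8.08% in Control samples. In tumour tissue such a fall can come from fewer cells of a type or from less RNA per cell, and these cannot be told apart here.

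Fyn had housekeeping-scaled counts of 407, 432 and 317 in 4′-BR samples 1, 2 and 3, against 661, 650 and 601 in Control samples 1, 2 and 3. The groups did not overlap, and here the Control samples were the tighter group. The levels were 385 ± 60.6 in 4′-BR tumours and 638 ± 31.9 in Control tumours (mean ± SD, n = 3 each), a log2 fold change of −0.72 (SE 0.17, 95% interval −1.09 to −0.35, edgeR adjusted p = 0.0387). Raw counts were 426, 278 and 169 in 4′-BR samples and 802, 1093 and 822 in Control samples. An exact permutation test of the scaled counts, two-sided, gave p = 0.1 for Lyn and for Fyn, the smallest that 3 against 3 samples allow. The fit ranked Fyn at 20 and Lyn at 29 of the 548 genes by p.

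The calls of Lyn and Fyn were close to the threshold, and leaving out any 1 of the 6 samples ended them. Without 4′-BR 1, 4′-BR 2 and 4′-BR 3 in turn, the edgeR adjusted p of Lyn was 0.149, 0.073 and 0.111, and that of Fyn 0.146, 0.0695 and 0.105. Without Control 1, Control 2 and Control 3, the edgeR adjusted p of Lyn was 0.053, 0.113 and 0.0838, and that of Fyn 0.0776, 0.0856 and 0.0507. The fold changes themselves moved less, from −0.999 to −0.73 for Lyn and from −0.81 to −0.60 for Fyn over the same 6 fits. DESeq2 called both (adjusted p = 0.0118 for Lyn and 0.00429 for Fyn), whereas limma on log2 values called neither (adjusted p = 0.0663 for each). A fit with counts of all samples thinned to the lowest housekeeping level, chosen after seeing the data, gave log2 fold changes of −0.78 and −0.67 and called neither (edgeR adjusted p = 0.0579 and 0.0542).

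**Figure D2:**
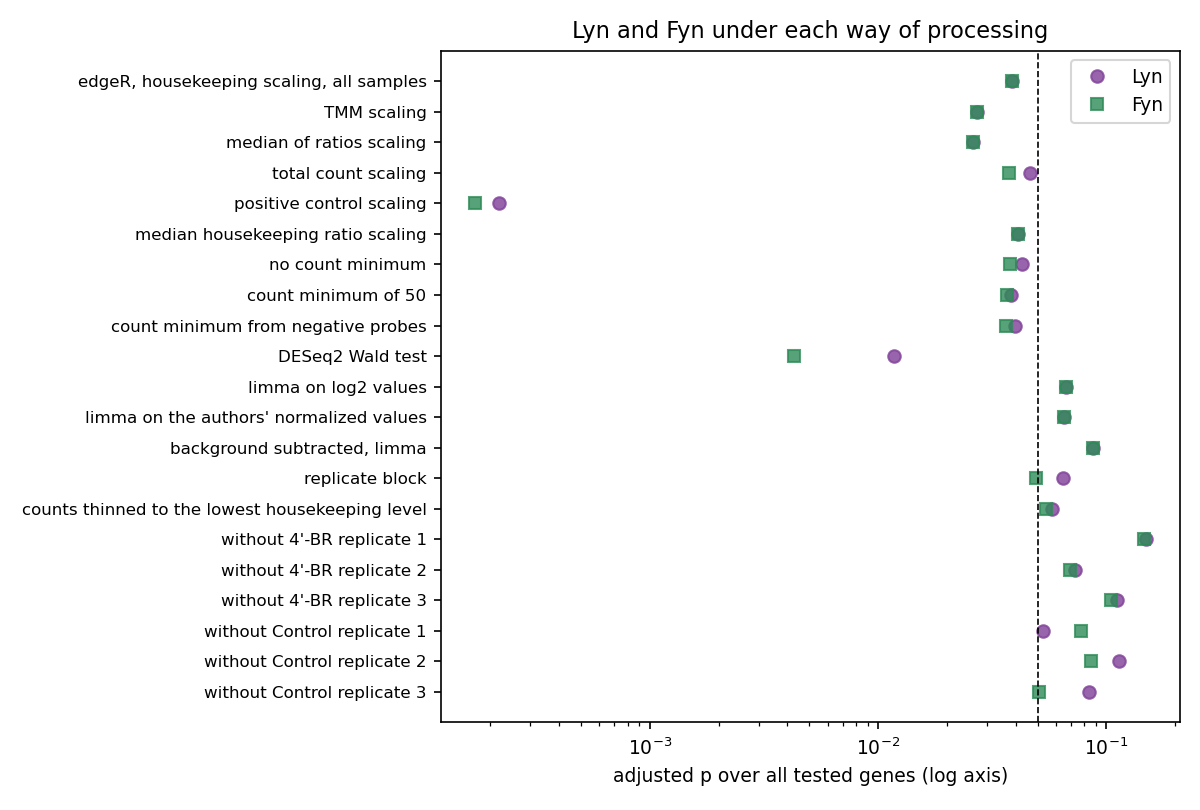
The adjusted p of Lyn (circles) and Fyn (squares) is plotted on a log axis for each way of processing, 1 per line, with the threshold of 0.05 as a dashed line. Points of the other scalings and count minimums lie left of the line, while the points of the fits that leave out a sample, of the limma fits and of the thinned counts lie right of it, and the replicate block divides them, with Fyn at 0.0494 and Lyn at 0.0647.

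A change of scale moves all genes by nearly the same amount, so that a distance from the median of all genes hardly depends on it. With positive control scaling, where the median of all genes moved down, Lyn was at −1.52 and Fyn at −1.36, which is −0.84 and −0.69 relative to the median of all genes. With total count scaling Lyn was at −0.71 and Fyn at −0.58, or −0.83 and −0.69 relative to that median. Positive control scaling also called Abl1 at −0.89 (edgeR adjusted p = 0.0134) and Btk at −0.92 (edgeR adjusted p = 0.0423) as lower, in a fit that called 44.3% of all genes lower.

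Lck, the kinase held by the CD4 and CD8 co-receptors, had housekeeping-scaled counts of 18.2, 21.8 and 20.6 in 4′-BR samples, against 19.8, 20.8 and 19.8 in Control samples. The groups overlapped, and the coefficients of variation of 9.15% in 4′-BR samples and 3.00% in Control samples were the lowest of the 7 genes and below the counting error of a single Lck count, 22.9% to 30.2% in 4′-BR samples and 16.9% to 20.4% in Control samples. The means were 20.2 ± 1.85 in 4′-BR tumours and 20.1 ± 0.604 in Control tumours (SD, n = 3 each), with a log2 fold change of −0.01 (SE 0.27, 95% interval −0.62 to 0.60, edgeR adjusted p = 0.985). Raw counts of Lck were only 11 to 19 in 4′-BR samples and 24 to 35 in Control samples. Changes of either direction within the interval remain compatible with these counts, and no detection limit was computed. A p above the threshold does not show that the levels were equal.

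Syk, which binds phosphorylated ITAM tails, had scaled counts of 49.7, 65.3 and 46.9 in 4′-BR samples, against 52.8, 65.4 and 47.5 in Control samples. In each group sample 2 was the highest, and the groups overlapped. The log2 fold change was −0.04 (SE 0.25, 95% interval −0.61 to 0.53, edgeR adjusted p = 0.932).

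Btk, the Tec-family kinase that activates phospholipase C downstream of Syk, had scaled counts of 51.6, 37.3 and 52.5 in 4′-BR samples, against 56.1, 68.4 and 51.2 in Control samples. The groups overlapped, with 4′-BR 2 lowest and Control 2 highest. The log2 fold change was −0.31 (SE 0.25, 95% interval −0.88 to 0.26, edgeR adjusted p = 0.477), and it turned to 0.23 when counts were thinned.

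Abl1 had scaled counts of 374, 320 and 319 in 4′-BR samples, against 331, 505 and 378 in Control samples. Control 2 stood above the other 5 samples, which overlapped. The log2 fold change was −0.26 (SE 0.19, 95% interval −0.69 to 0.17, edgeR adjusted p = 0.437), and without Control 2 it was −0.07.

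Blnk, the scaffold that joins Syk to Btk in B cells and is also present in macrophages, had scaled counts of 75.5, 71.5 and 91.9 in 4′-BR samples, against 54.4, 63.6 and 67.3 in Control samples. It was the 1 gene of the 7 whose 4′-BR samples all lay above the Control samples. The means were 79.6 ± 10.8 in 4′-BR tumours and 61.8 ± 6.64 in Control tumours (SD, n = 3 each), and the difference did not pass the test (log2 fold change 0.36, SE 0.22, 95% interval −0.14 to 0.86, edgeR adjusted p = 0.366). With positive control scaling Blnk turned to −0.27. Groups that did not overlap were found for 3 of the 7 genes and for 30.5% of all genes tested.

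**Figure D3:**
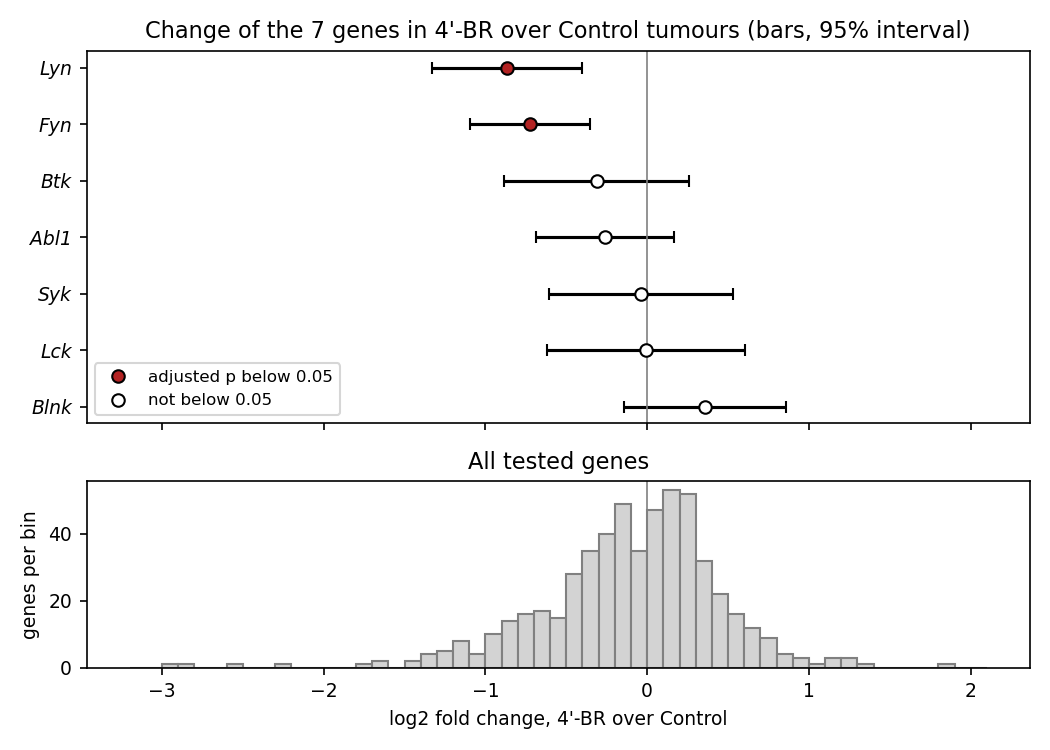
The upper panel plots the log2 fold change of each gene, 4′-BR over Control, with its 95% interval, filled where the adjusted p was below 0.05, and the lower panel is a histogram of the log2 fold changes of all 548 tested genes. Lyn at −0.86 and Fyn at −0.72 have intervals that end below 0, and the intervals of the other 5 genes span 0.

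Whether the genes differed from each other in their change was examined through the ratio of their raw counts within a sample, which no scaling can alter. Over the 21 pairs the smallest exact permutation p was 0.1, or 0.233 after Benjamini-Hochberg adjustment, so that no pair could pass, and the values are given as a description. The groups did not overlap in 9 of the 21 pairs, against 32.9% of all 149878 pairs of tested genes. Of the 9, 7 set Lyn or Fyn against another gene, as the separation of these 2 genes between groups already entails in part. The log2 ratio of Lyn to Lck was 2.24, 2.12 and 1.93 in 4′-BR samples, against 2.67, 3.15 and 3.03 in Control samples, a difference of −0.85. Each 4′-BR sample thus had less Lyn for its Lck than any Control sample. The ratio of Fyn to Lck was 4.49, 4.31 and 3.94 in 4′-BR samples, against 5.06, 4.96 and 4.93 in Control samples, a difference of −0.74, again with no overlap.

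The ratio of Lyn to Syk, the pair that acts in sequence at myeloid and B cell receptors, was 0.79, 0.54 and 0.75 in 4′-BR samples, against 1.26, 1.50 and 1.77 in Control samples, a difference of −0.81. Lyn was lower relative to Syk in every 4′-BR sample. The widest shift was that of Lyn to Blnk, with a difference of −1.21 between means of 0.12 ± 0.32 in 4′-BR samples and 1.34 ± 0.18 in Control samples (SD, n = 3 each). The ratio of Lyn to Fyn had a difference of −0.11 between means of −2.15 ± 0.12 in 4′-BR samples and −2.03 ± 0.31 in Control samples, and the groups overlapped (exact permutation p = 0.7, adjusted 0.735). The remaining pairs without overlap were Fyn with Syk and with Blnk, Lyn with Abl1, and Blnk with Btk and with Abl1. In the pairs without overlap the sign of the difference cannot turn when 1 sample is left out, so those fits are no check of it. The differences of these pairs kept their sign when the negative probe level was subtracted.

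The upstream sequence is shown for Fyn, which fell, beside those of its T cell relative Lck, which did not pass, as a description of both genes. The 3 sequences are the 250 bases before an annotated transcript start, from RefSeq on GRCm38.p6. An entry exists for 6 of the 7 genes, and Lyn, with none, is only named. The annotated Fyn gene begins at position 39369743, so the end of the Fyn window, with its GC box, lies inside the gene. The downstream Lck window lies inside the annotated Lck gene, and the upstream Lck window lies just outside it. Capitals mark AGGAAG, a core bound by Ets-family factors, and GGGCGG, the GC box bound by Sp1, on either strand, with no overlap between matches.
Fyn, chr10:39369549-39369798, plus strand: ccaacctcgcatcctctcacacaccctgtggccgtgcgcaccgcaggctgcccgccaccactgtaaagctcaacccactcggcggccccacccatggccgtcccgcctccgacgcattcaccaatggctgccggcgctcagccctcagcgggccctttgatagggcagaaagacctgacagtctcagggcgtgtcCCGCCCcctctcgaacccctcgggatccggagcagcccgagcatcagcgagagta
Lck, upstream start, chr4:129573642-129573891, minus strand: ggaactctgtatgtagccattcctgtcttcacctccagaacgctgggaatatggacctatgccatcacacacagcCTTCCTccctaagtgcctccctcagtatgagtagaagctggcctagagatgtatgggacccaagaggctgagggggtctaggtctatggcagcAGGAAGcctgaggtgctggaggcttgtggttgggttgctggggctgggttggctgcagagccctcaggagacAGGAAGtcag
Lck, downstream start, chr4:129558373-129558622, minus strand: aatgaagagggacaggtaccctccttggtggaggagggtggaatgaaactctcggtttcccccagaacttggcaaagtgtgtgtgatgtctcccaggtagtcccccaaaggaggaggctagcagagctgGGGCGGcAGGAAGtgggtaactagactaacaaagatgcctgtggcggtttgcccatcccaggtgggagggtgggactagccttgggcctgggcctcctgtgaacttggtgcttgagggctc
The Fyn sequence holds 1 GC box, no AGGAAG and 21 CpG dinucleotides at 67.2% G and C. The upstream Lck sequence holds 3 matches to AGGAAG, no GC box and 1 CpG at 56.4% G and C, and the downstream one holds 1 match to each motif and 3 CpG at 58.0%. Of 32851 annotated promoters of the same length, 29.5% hold AGGAAG and 32.7% hold GGGCGG, and the median was 6 CpG and 52.4% G and C. These matches describe the letters of the windows and were not tested for binding.

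Markers of the cells that use these kinases were measured in the same samples. All 10 macrophage markers had negative fold changes and 4 passed the test (4 with DESeq2, 1 with limma), with a median of −0.63 and a summed level of 1401 to 1939 in 4′-BR samples and 2416 to 3206 in Control samples. The stroma markers were also lower, with 4 of 7 past the test (5 with DESeq2, 1 with limma), 6 of 7 negative and a summed level of 11007 to 16451 in 4′-BR samples and 23829 to 32837 in Control samples. The mast cell markers summed to 313 to 400 in 4′-BR samples and 501 to 598 in Control samples. Of 3 tested 2 were negative and 1 positive, and 1 passed (1 with DESeq2, 0 with limma). Cma1 and Kit were chosen after their values were seen. The mast cell protease gene Cma1 fell to a mean of 256 in 4′-BR samples, against 456 in Control samples (log2 fold change −0.83, edgeR adjusted p = 0.0387). The receptor gene Kit had means of 49.9 in 4′-BR samples and 24.1 in Control samples without passing (log2 fold change 1.04, edgeR adjusted p = 0.244). The Kit groups overlapped, at 23.9, 90.2 and 35.6 in 4′-BR samples, against 33.8, 16.7 and 21.9 in Control samples. All 3 tested neutrophil markers were negative and 1 passed (1 with DESeq2, 0 with limma), S100a8 (log2 fold change −1.33, edgeR adjusted p = 0.0356). The neutrophil list summed to 1174 to 1900 in 4′-BR samples and 2880 to 4665 in Control samples. Of 5 tested T cell markers 4 were positive and 0 passed with edgeR (0 at an unadjusted p under 0.05, 0 with DESeq2, 0 with limma), with a median of 0.58. Their summed level was 161 to 244 in 4′-BR samples and 120 to 169 in Control samples. Of the T cell markers, Cd3d and Cd247 turned negative with positive control scaling, and Cd4 and the macrophage marker Cd68 turned positive with total count scaling. All 7 B cell markers lay under the count minimum, at 3.96 to 5.55 scaled counts per probe in 4′-BR samples and 3.89 to 5.69 in Control samples, which is the level of the negative probes. The Blnk counts of 54.4 to 91.9 were thus not accompanied by B cell markers above background. Of 5 epidermis markers 4 were positive and 2 passed as higher (3 called with DESeq2, 0 with limma). These 2 were Itgb4 and the skin chemokine gene Ccl27a (log2 fold change 0.85, edgeR adjusted p = 0.0387). The epidermis list summed to 5528 to 6367 in 4′-BR samples and 3932 to 4639 in Control samples. With positive control scaling Cdh1 and Itga6 of this list turned negative, and Ccl27a was at 0.23 (edgeR adjusted p = 0.481). With total count scaling Epcam turned positive. The 6 natural killer markers summed to 88.2 to 134 in 4′-BR samples and 57.7 to 75.3 in Control samples. Klrd1 alone was tested and did not pass, and it turned to −0.09 with positive control scaling. The other natural killer probes lay under the count minimum, so that background forms part of the sum. Leaving out 1 sample at a time ended the call of Cma1 in all 6 fits (edgeR adjusted p 0.0562 to 0.132), whereas S100a8 was called without Control 2 or Control 3 (0.012 to 0.132) and Ccl27a without Control 3 (0.0237 to 0.149). The part of any cell type in the change of Lyn or Fyn was not tested. Of the melanocyte markers S100b alone was measured, at 289 to 810 scaled counts in 4′-BR samples and 448 to 614 in Control samples.

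Relative to the geometric mean of the 10 macrophage markers of the same sample, Lyn had log2 ratios of −0.39, −0.41 and −0.24 in 4′-BR samples, against −0.28, −0.15 and −0.06 in Control samples. The groups overlapped, and the difference was −0.18 (exact permutation p = 0.2, adjusted 0.28 over 7 ratios). Syk stood at −1.18, −0.94 and −0.99 against the same markers in 4′-BR samples, and at −1.54, −1.65 and −1.82 in Control samples. This ratio was higher in every 4′-BR sample than in every Control sample, with a difference of 0.63 (exact permutation p = 0.1, adjusted 0.175). Btk overlapped, with a difference of 0.35 (exact permutation p = 0.4).

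Relative to the 5 tested T cell markers, Fyn had log2 ratios of 3.78, 3.60 and 2.88 in 4′-BR samples, against 4.82, 4.76 and 4.29 in Control samples, a difference of −1.20. All 4′-BR samples were lower than all Control samples. Lck was at −0.70, −0.72 and −1.06 in 4′-BR samples, against −0.24, −0.20 and −0.64 in Control samples, a difference of −0.47, with no overlap. Relative to the 7 stroma markers the Fyn ratio overlapped between groups, with a difference of 0.11 between −1.03 ± 0.08 in 4′-BR samples and −1.14 ± 0.15 in Control samples (SD, n = 3 each; exact permutation p = 0.3). Abl1 was higher relative to the stroma markers, with a difference of 0.60 and no overlap. None of these 7 ratios could pass, because the smallest p that 3 against 3 samples allow is 0.1.

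**Figure D4:**
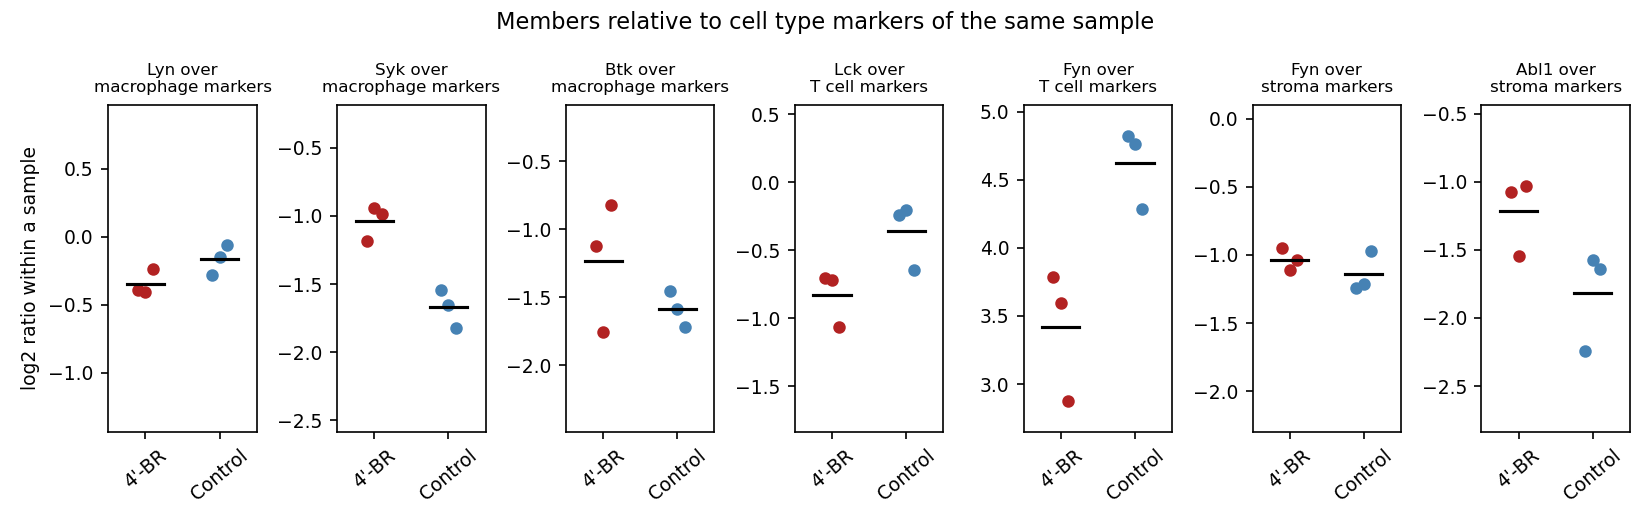
Each panel plots the log2 ratio of 1 gene to the geometric mean of a marker list in the same sample, with the 3 4′-BR samples left of the 3 Control samples and bars at the means; every axis spans the same number of log2 units. Lyn over macrophage markers and Fyn over stroma markers overlap between groups, while Fyn over T cell markers differs by −1.20.

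The genes around these kinases in the pathway did not pass in most lists. Over all tested genes 23.4% had an unadjusted p under 0.05, and the unadjusted counts below are to be read against that share. Among immune receptors that signal through ITAM tails or with their co-receptors, 20 were measured, 12 tested and 0 passed with edgeR (3 at an unadjusted p under 0.05, 1 with DESeq2, 0 with limma), with a median of −0.29. The lowest p was that of Fcer1g, the signalling chain shared by activating Fc receptors, at 174, 174 and 128 scaled counts in 4′-BR samples, against 210, 294 and 282 in Control samples. Its groups did not overlap, and its log2 fold change of −0.72 did not pass (SE 0.20, edgeR adjusted p = 0.0626), although it was called by DESeq2 (adjusted p = 0.0271) and by edgeR with TMM (adjusted p = 0.032) and median of ratios scaling (0.0325). Trem1, an activating receptor of neutrophils and monocytes, was next, at 5.45 ± 2.21 in 4′-BR tumours, at the level of the negative probes, and 26.4 ± 28.3 in Control tumours (SD, n = 3 each), where Control 2 alone stood at 58.3.

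Among the other tyrosine kinases on the panel, 22 were measured, 18 tested and 0 passed with edgeR (4 at an unadjusted p under 0.05, 0 with DESeq2, 0 with limma), with a median of −0.03. Zap70, the T cell relative of Syk, was at 45.9, 34.2 and 33.8 scaled counts in 4′-BR samples, against 15.7, 19.0 and 27.1 in Control samples. The groups did not overlap, and the log2 fold change of 0.89 did not pass (SE 0.31, edgeR adjusted p = 0.111). Tie1, an endothelial receptor kinase, was at −0.67 (edgeR adjusted p = 0.0799). Of the 7 endothelial markers, Tie1 among them, 5 were negative and 2 positive, with a median of −0.10. In edgeR 0 passed (1 at an unadjusted p under 0.05, 0 with DESeq2, 0 with limma). Their summed levels overlapped, at 653 to 818 in 4′-BR samples and 729 to 908 in Control samples. Named after its values were seen, Blk, the Src-family kinase of B cells, was at 3.12 ± 1.93 in 4′-BR tumours and 2.06 ± 1.84 in Control tumours (SD, n = 3 each), no higher than the negative probes.

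Inhibitory receptors and phosphatases, several of which are substrates or regulators of Lyn, had 14 measured and 10 tested genes, of which 0 passed with edgeR (1 at an unadjusted p under 0.05, 0 with DESeq2, 0 with limma), with a median of −0.19. Cd33, a sialic acid receptor of myeloid cells, was at 22.9, 18.7 and 24.4 in 4′-BR samples, against 42.1, 41.6 and 32.2 in Control samples (log2 fold change −0.81, SE 0.28, edgeR adjusted p = 0.111). Ceacam1, an adhesion receptor with an inhibitory tail, was at 0.52 (edgeR adjusted p = 0.285) and turned to −0.13 with positive control scaling. Of the adaptors and effectors, 17 were measured, 13 tested and 0 passed with edgeR (3 at an unadjusted p under 0.05, 2 with DESeq2, 0 with limma), with a median of 0.15. The 2 of lowest p were genes of NFAT factors, which calcium signals switch on. Nfatc2 was at 380, 365 and 246 in 4′-BR samples, against 137, 227 and 213 in Control samples, and Nfatc1 at 241, 258 and 233 in 4′-BR samples, against 131, 190 and 147 in Control samples. Neither overlapped between groups and neither passed, at log2 fold changes of 0.79 (SE 0.24, edgeR adjusted p = 0.072) and 0.64 (SE 0.18, edgeR adjusted p = 0.0681), and Nfatc1 turned to −0.01 with positive control scaling. DESeq2 called both as higher (adjusted p = 0.0319 for Nfatc2 and 0.0411 for Nfatc1), as did edgeR with TMM, median of ratios and total count scaling (adjusted p 0.0325 to 0.0452 over both genes). With positive control scaling 4 genes of this list were called lower, none of them these 2.

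The integrins, whose adhesions recruit Fyn and other Src-family kinases, were the list with genes past the test. Of 13 tested, 2 fell and 1 rose (6 at an unadjusted p under 0.05), with a median of −0.23. Over all tested genes 6.93% passed. Of the integrins that passed, Itgam was already counted among the macrophage markers and Itgb4 among the epidermis markers. Itgb1, the β1 chain of matrix integrins, fell to 1430, 1194 and 990.4 scaled counts in 4′-BR samples, against 1891, 2174 and 1851 in Control samples (log2 fold change −0.71, SE 0.18, edgeR adjusted p = 0.0431). Itgam, the CD11b chain of myeloid cells, fell to 36.3, 46.7 and 37.5 in 4′-BR samples, against 76.7, 103 and 81.9 in Control samples (log2 fold change −1.12, SE 0.24, edgeR adjusted p = 0.0387). Itgb4, which anchors basal epithelial cells, rose to 492, 443 and 373 in 4′-BR samples, against 204, 279 and 290 in Control samples (log2 fold change 0.76, SE 0.19, edgeR adjusted p = 0.044). Limma on log2 values called 1 of the 13, Itgam, and DESeq2 called 4. Leaving out 1 sample at a time ended the calls of Itgb1 (edgeR adjusted p 0.0595 to 0.132) and Itgb4 (0.0529 to 0.176) in all 6 fits, while Itgam remained called without Control 3 alone (0.0492 to 0.149). Itgb4 was at 0.13 with positive control scaling (edgeR adjusted p = 0.706).

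**Figure D5:**
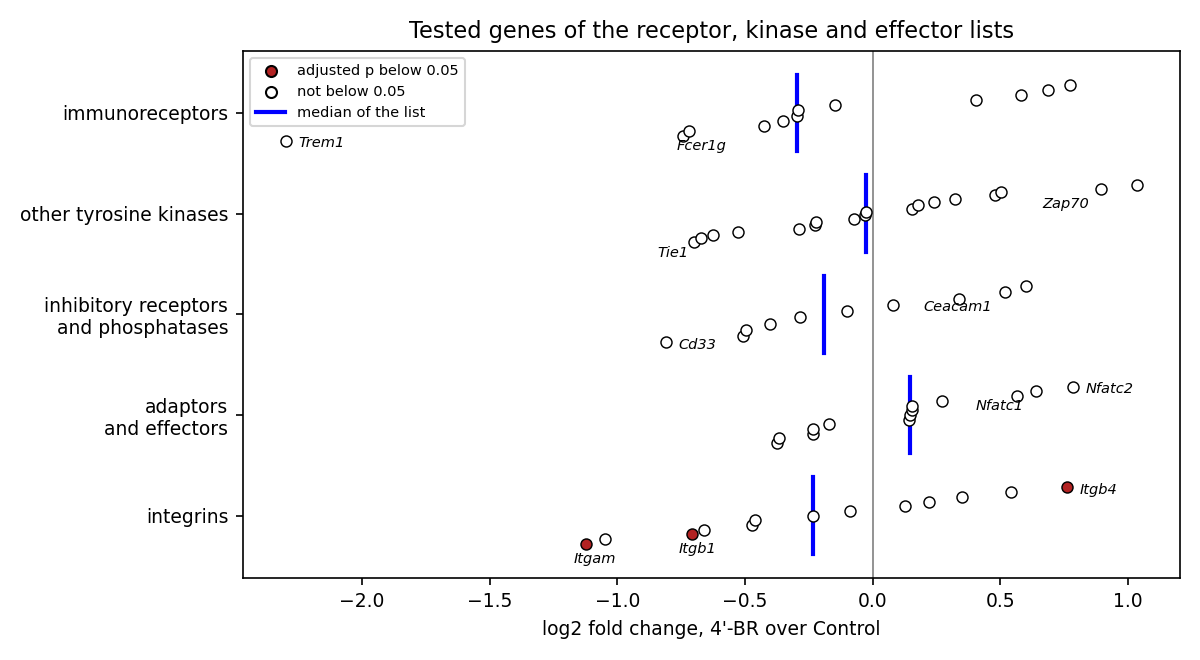
Each point is a tested gene of the list named on the left, placed by its log2 fold change, 4′-BR over Control, and filled where the adjusted p was below 0.05; the blue line is the median of the list. The 3 filled points, Itgam, Itgb1 and Itgb4, are integrins, and the medians lie between −0.29 and 0.15.

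The genes whose pattern was most alike were found by the root mean square difference of gene-centred log2 scaled counts over the 6 samples, a distance with no sign or test. For Lyn these were Fcer1g (0.12), the eosinophil attractant gene Ccl24 (0.12) and Tie1 (0.14), against a median distance of 0.50 to all tested genes. For Fyn they were the pattern receptor gene Tlr2 (0.08), the interferon-inducible gene Ifitm2 (0.09) and the mannose receptor gene Mrc1 (0.11), against a median of 0.46. Counts of Tlr2 and Ccl24 were low, at 16.9 and 15.0 scaled counts in 4′-BR 3, where the negative probes stood at 7.50. Nearest to Syk was Pecam1 (0.05), nearest to Btk was Jak1 (0.12), nearest to Abl1 was Dusp6 (0.08), and nearest to Blnk was Myd88 (0.07). For Lck the nearest was the proteasome subunit gene Psmd7 (0.07), which is a flat profile matched by a flat profile.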

How the data were processed

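Sample titles gave the groups and replicate numbers. Per the file headers, the deposited raw table gives a barcode count for 750 endogenous and 20 housekeeping genes, 6 positive and 8 negative control probes. A second deposited table gives a normalized score for each gene, and these scores differed by at most 1.23 from raw counts times 1 housekeeping factor per sample. No source used here names the software. The 7 genes matched RefSeq (GRCm38.p6) by symbol and transcript.

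Raw counts were scaled by the geometric mean of the 20 housekeeping probes. Genes averaging 20 or more raw counts (548 of 770) were fitted with edgeR 4.0.16 in R 4.3.3 (glmQLFit, glmQLFTest), two-sided, adjusted over all 548. The fit was tested on simulated data. DESeq2 1.42.0 and limma 3.58.1 (log2 with a pseudocount of 1), other scalings, minimums, background subtraction, blocking and left-out samples were alternatives. Replicates differed by more than counting noise (chi-square per degree of freedom 7.30 to 26.2), so none was a bare recount of another in its group. Whether any 2 came from the same animal or tumour cannot be told from this. The genes and lists were chosen with earlier results of these data known. Named genes were the 7, each list's genes past the threshold and its 2 of lowest p, and the 3 nearest patterns per gene. Counting errors cover counting only.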

Additional observations from a re-analysis of the deposited data

How the results depend on the processing

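The count of these 7 genes past the threshold was 2 with 5 of the 6 scalings tried, with each count minimum and with DESeq2. It was 4 with positive control scaling, 1 with the replicate number as a block, and 0 with limma on log2 values, on the authors' normalized values or after background subtraction, with thinned counts, and without each sample in turn (0 to 0). Over all genes the 38 calls became 60 with total count scaling, 244 with positive control scaling, 69 with DESeq2, 9 with limma on log2 values, 9 with limma on the authors' values, 3 after background subtraction and 0 to 35 without 1 sample. The same-numbered samples deviated with correlations of -0.08, 0.08 and 0.21, and 3 of 6 samples correlated best with their own number, so the numbers were not taken as pairs. With the replicate block Lyn was at -0.84 (edgeR adjusted p = 0.0647), Fyn remained called (0.0494), and 30 genes passed in all. Lyn and Fyn kept their sign under all 20 alternatives. As their groups did not overlap, the fits without 1 sample could hardly turn it, and the other alternatives reuse the same counts. Near 0, signs turned for Lck to 0.0043 with median of ratios, 0.14 with total count, 0.0013 with limma and 0.020 with the authors' values (-0.068 to 0.076 without 1 sample), and for Syk to 0.11 with total count (-0.19 to 0.10 without 1 sample). Further from 0, Blnk turned from 0.36 to -0.27 with positive control scaling, and Btk from -0.31 to 0.23 in 1 random thinning. The causes were not tested. Lck was not tested at a minimum of 50, and no B cell ratio was formed because none of those markers reached 20 counts. Depth limits Lck most, at 11 to 35 raw counts.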
